A study of Mus musculus with 8 samples.

Results

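The 16762 array probes placed on mouse chromosomes 16 and 18 were examined, out of 232626 probes in all. The chromosomes were chosen by their levels in tumour 4, where they were the highest of the 19 autosomes, so that those levels are given as a description and nothing is inferred from them. Every probe whose annotated position lies on either chromosome was kept, 8897 on chromosome 16 and 7865 on chromosome 18. They were read by array comparative genomic hybridisation, in which test and reference DNA carry different dyes and compete for the same probes. The 8 arrays held liver DNA of male C57BL/6 mice. Of these, 6 were hepatocellular carcinomas (HCC) of mice with a FEAT transgene (tumours 1 to 6, at 16, 21, 20, 18.5, 22 and 12 months). The others were 1 normal liver of a FEAT mouse (the non-tumour FEAT liver, 13 months) and 1 normal liver of a wild-type mouse (6 months). Each was set against DNA from a normal C57BL/6 liver of 6 months. Tumour 4 is the tumour labelled with lung metastasis. The labels name neither the promoter nor the integration site of the transgene, and each non-tumour group is 1 animal. Levels are given as the log2 ratio of test to reference DNA, with 0 at the autosomal median of the array.

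A whole-chromosome gain or loss arises when a chromosome is missegregated at mitosis, and it changes the dose of every gene on it together. In liver cancer such changes are common, and they differ from tumour to tumour. In a bulk sample the log2 ratio depends both on the copy number and on the share of cells that carry the change, and these cannot be told apart here. Array ratios also carry waves that follow the base composition of the genome, with neighbouring probes of like GC content (the share of G and C bases) shifted together. Such a wave spans megabases and can look like a shallow gain or loss, so that the levels of chromosomes 16 and 18 were read with and without a GC correction.

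The probes are single strands of 45 to 60 bases, and those below, all from chromosome 16, were taken from the array's design, with G and C in capitals. The first pair has the lowest GC content among its 60-base probes with a value on every array, and none of these exceeds the next probe. They have 11 and 25 G or C bases, or 18.3% and 41.7%, and mark the range of these 60-base probes. Shorter probes can lie outside it, as does the second Prm1 probe below at 42.3%. The GC relations below rest on means of 1 Mb bins, which ran only from 35.1% to 37.5% on chromosome 16 and from 35.5% to 37.4% on the other chromosome. The next 3 are the probes named Prm1 in the only short segment called on these chromosomes. The last, in Ahsg, was low on all 7 arrays of FEAT mice. Strands are not given in the annotation.
AK041445, chr16:14148455-14148514: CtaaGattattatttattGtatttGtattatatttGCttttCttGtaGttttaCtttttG
no gene name, chr16:19369551-19369610: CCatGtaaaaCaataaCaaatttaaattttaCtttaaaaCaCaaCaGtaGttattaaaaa
AK187245, chr16:85767698-85767757: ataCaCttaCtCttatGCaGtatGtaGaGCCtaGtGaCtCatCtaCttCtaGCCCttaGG
Prm1, chr16:10473881-10473934: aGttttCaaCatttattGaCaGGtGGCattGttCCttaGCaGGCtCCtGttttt
Prm1, chr16:10473944-10473995: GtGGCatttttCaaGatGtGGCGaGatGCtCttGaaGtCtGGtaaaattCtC
Prm1, chr16:10473996-10474054: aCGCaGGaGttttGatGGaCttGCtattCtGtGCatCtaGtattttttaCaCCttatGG
Ahsg, chr16:22553662-22553713: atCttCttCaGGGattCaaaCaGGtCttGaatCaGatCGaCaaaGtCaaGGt

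The probes spanned 95.4 Mb of chromosome 16 (from 3016810 to 98465647) and 87.6 Mb of chromosome 18 (from 3347063 to 90910037), with a median spacing of 7.74 and 8.30 kb. The sources used here do not name the genome build, and positions are those of the array's annotation. Of the probes, 69.1% and 65.6% carry a gene name, with 821 and 720 names in all. Between 36 and 108 probes of chromosome 16 and between 20 and 70 of chromosome 18 had no value on an array. The probe noise (SD, from differences of neighbouring probes) ranged from 0.22 on the wild-type and tumour 5 arrays to 0.49 on the tumour 4 array, which was the noisiest of the 8. As a check of labels and direction, a chromosome 1 probe for 5630401D24Rik (Mettl13, the gene also called FEAT) stood between 0.26 and 3.73 in tumours, at 2.05 in the non-tumour FEAT liver and at -0.15 on the wild-type array. The 0.26 was that of tumour 4 and lay under the probe noise of its array. Another probe of the gene showed less contrast, at 0.37 to 1.07 in tumours (1.07 in tumour 4). It stood at 0.54 in the non-tumour FEAT liver and at 0.15 on the wild-type array.

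Chromosomes 16 and 18 each departed from 0 in different directions in different tumours. In tumour 4 both stood high, at a mean of 0.20 and 0.19. Against the autosomal median, chromosome 16 stood low in tumour 2 and chromosome 18 did not. In tumour 5 chromosome 18 stood low against it and chromosome 16 did not. The tumour 5 reading rests on the centring, since the autosomal median of that array stood at 0.10 as deposited. Over tumours 1 to 6, the mean of chromosome 16 was 0.06, -0.07, 0.05, 0.20, 0.05 and 0.02, against 0.01 and 0.03 in the non-tumour livers (FEAT, then wild-type, as throughout). For chromosome 18 the tumour means were 0.05, 0.03, 0.04, 0.19, -0.10 and 0.01, against 0.01 and 0.02 in those livers. The mean over the 6 tumours was 0.05 ± 0.09 (SD, n = 6) for chromosome 16 and 0.04 ± 0.09 (SD, n = 6) for chromosome 18, so that the spread between tumours was larger than the mean. Tumours 1, 3 and 6 stood at 0.06 or less on both chromosomes.

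The tumour 4 means correspond to linear ratios of 1.15 and 1.14 for chromosomes 16 and 18. Next in the order of its autosomes came chromosome 1 at 0.18, chromosome 17 at 0.13 and chromosome 15 at 0.08, and the gap between chromosomes 18 and 1 was smaller than the SD over 1 Mb bins of chromosome 18, which was 0.07. The probe medians of tumour 4 were lower than its means, at 0.16 for both chromosomes. Of the single probes, 63.6% on chromosome 16 and 62.2% on chromosome 18 lay above 0 in this noisy array. In means of 1 Mb bins, all 96 bins of chromosome 16 and all 88 of chromosome 18 lay above 0, from 0.02 to 0.49 and from 0.04 to 0.41. Among 2189 bins of the other autosomes, 61.6% did. In tumour 2, chromosome 16 was the lowest of the 19 autosomes at -0.07, with chromosome 19 next and close to it at -0.05. There 8 of the 96 bins of chromosome 16 lay above 0, against 75% of the bins of the other autosomes. In tumour 5, no bin of chromosome 18 lay above 0, where 56.9% of the bins of the other autosomes did, and its highest bin stood at -0.02. That low level was not particular to chromosome 18, which came 13th of the 19 autosomes there. Chromosomes 4, 6, 10, 12 and 13 stood close to it, at -0.11, -0.08, -0.10, -0.11 and -0.11, and chromosomes 7 and 9 lower, at -0.26 and -0.29. Chromosomes 1, 3, 15, 17 and 19 stood high in tumour 5, at 0.32, 0.20, 0.26, 0.19 and 0.16. Chromosomes 2, 5, 8, 11, 14 and 16 stood at 0.04 to 0.07 there. The autosomal median of tumour 5 thus fell between these and the group of chromosome 18. Which group is the unchanged one was not tested. Levels of single arrays under other centring are given below for tumour 4 only. The bins counted here share a library and a chromosome and are not replicates.

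**Figure D1:**
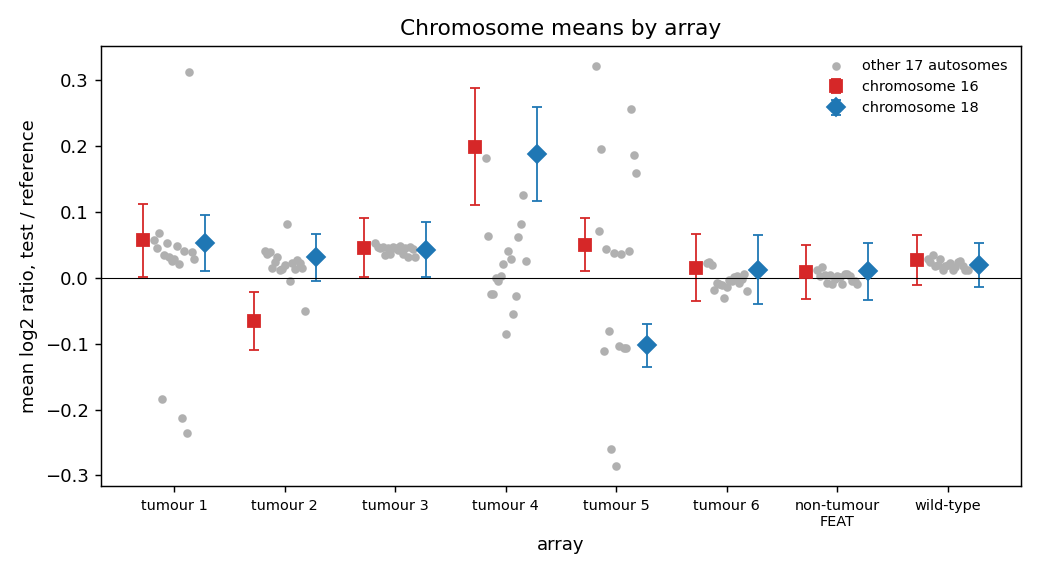
Mean log2 ratio (test over reference) of chromosomes 16 (squares) and 18 (diamonds) on each of the 8 arrays, with bars for the SD over 1 Mb bins and grey points for the other 17 autosomes. Both chromosomes lie at 0.20 and 0.19 in tumour 4, while chromosome 16 lies at -0.07 in tumour 2 and chromosome 18 at -0.10 in tumour 5.

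Outside tumour 4, whose level chose the chromosomes, the tumours did not differ from the non-tumour livers beyond their spread. The comparison asked whether copy number of either chromosome is shifted in FEAT tumours as a group. In the 5 other tumours chromosome 16 averaged 0.02 ± 0.05 (SD, n = 5), against 0.02 in the 2 non-tumour livers. The difference was 0.003 (SE 0.041, adjusted p = 0.981 by limma over 21 chromosomes). Chromosome 18 averaged 0.01 ± 0.06 (SD, n = 5) against 0.01, a difference of -0.008 (SE 0.047, limma adjusted p = 0.968). For each chromosome 3 of the 5 tumours lay above both non-tumour livers and 1 lay below both. An exact two-sided permutation test gave p = 0.762 for each, also after adjustment over both, where the smallest possible p over 21 splits was 0.0952. Limma called 0 of 21 chromosomes (0% called, and 0 at an unadjusted p under 0.05). Of 2522 bins of 1 Mb it called 0 (0% called), with 4 at an unadjusted p under 0.05, none of them among the 184 on chromosomes 16 and 18. On chromosome 16 the bin differences ran from -0.04 to 0.05, with 53 of 96 higher in tumours. On chromosome 18 they ran from -0.04 to 0.03, with 26 of 88 higher. Over all 2522 bins, 1429 were higher in tumours. Leaving out 1 array at a time moved the difference between -0.006 and 0.024 for chromosome 16 and between -0.019 and 0.020 for chromosome 18, the highest value of each coming without tumour 2 and without tumour 5.

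Along their length, the departures from 0 in tumours 2, 4 and 5 ran over the entire chromosome. Over the 20 blocks of 5 Mb of chromosome 16, tumour 4 stood between 0.11 and 0.31, and over the 19 blocks of chromosome 18 between 0.12 and 0.28. The highest block of chromosome 16 lay at 65 to 70 Mb and the lowest at 90 to 95 Mb. Tumour 2 was below 0 in 19 of 20 blocks of chromosome 16, from -0.10 to 0.00, and tumour 5 in 19 of 19 blocks of chromosome 18, from -0.13 to -0.07. With the wild-type array subtracted block by block, tumour 4 ran from 0.11 to 0.24 on chromosome 16 and from 0.11 to 0.30 on chromosome 18. The same step left tumour 2 below 0 in 20 of 20 blocks, from -0.12 to -0.07, with an SD over blocks of 0.01 in place of 0.03. Part of the course along chromosome 16 was therefore held in common with the wild-type array. Its block at 65 to 70 Mb was the highest in tumours 2, 4, 5 and 6 and in both non-tumour livers.

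**Figure D2:**
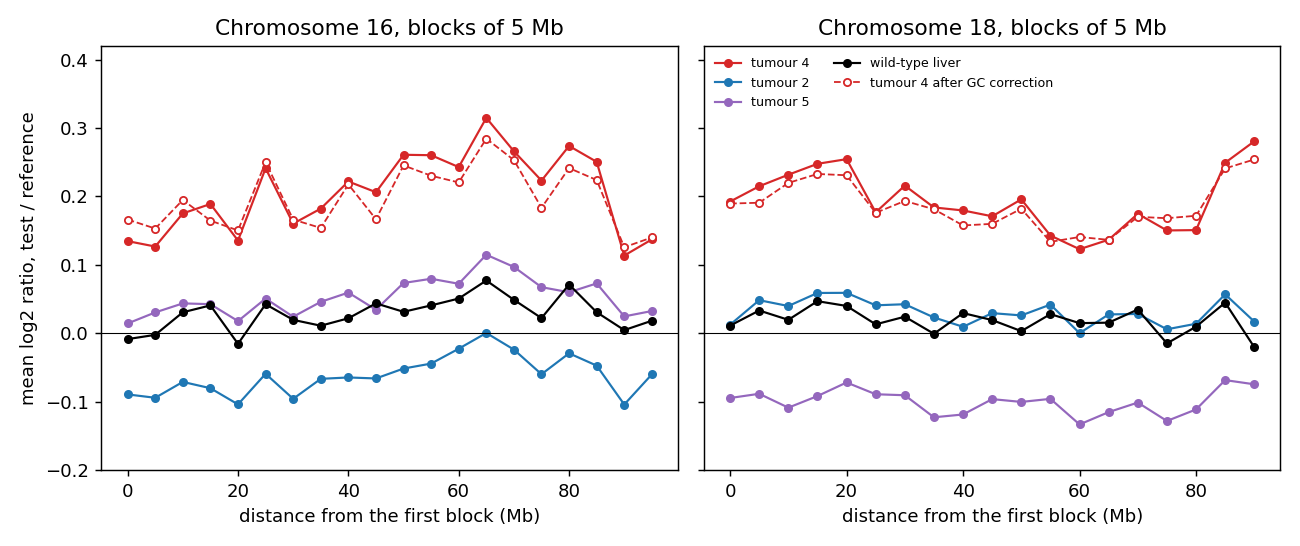
Mean log2 ratio (test over reference) in blocks of 5 Mb along chromosomes 16 and 18 against the distance from the first block in Mb, for tumours 2, 4 and 5 and the wild-type liver, with a dashed line for tumour 4 after GC correction. Tumour 4 stays between 0.11 and 0.31 on chromosome 16 and between 0.12 and 0.28 on chromosome 18, above the wild-type liver in every block.

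Segmentation placed only the middle of chromosome 16 above the calling threshold of 0.2 in tumour 4. Its first 43.2 Mb stood at 0.17 (4636 probes, uncalled), the stretch from 46179903 to 89979192 at 0.26 (43.8 Mb, 3215 probes, gained) and the last 8.48 Mb at 0.12 (983 probes, uncalled). The gained stretch held 36.4% of the probes of chromosome 16 with a value, where 5.00% of autosomal probes of tumour 4 lay in gained segments. Chromosome 18 of tumour 4 formed 1 segment of 7819 probes at 0.19, under the threshold, so that 0% of it was gained. The call therefore separates chromosomes whose means differ by less than their spread over bins.

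A 3-part division of chromosome 16 appeared on 5 of the 8 arrays, tumour 4 among them, with breaks at 46.2 to 52.1 Mb and at 87.3 to 90.0 Mb. In tumour 1 the parts stood at 0.04, 0.10 and 0.02. In tumour 2 they stood at -0.08, -0.04 and -0.09. In tumour 5 they stood at 0.04, 0.08 and 0.03, and in the wild-type liver at 0.01, 0.05 and 0.01. The middle part was the highest on each of these arrays. After GC correction in windows of 500 kb, chromosome 16 of tumour 4 was 1 segment at 0.19, and no gain was called. In tumour 4, centring on the mode of the array in place of its median gave levels of 0.28 and 0.27 and put 100% of both chromosomes above the threshold.

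The GC content of the probes moved with the level on both chromosomes, and the distance of both chromosomes from the other autosomes in tumour 4 was found in every GC class. Across 1 Mb bins of tumour 4, the level fell with the mean GC content of the probes, with a slope of -0.10 per GC point on chromosome 16 (r = -0.47, n = 96 bins), -0.08 on chromosome 18 (r = -0.36, n = 88 bins) and -0.09 on the other autosomes (n = 2189 bins). The slopes of the wild-type array were -0.04, -0.05 and -0.03, and those of tumour 3, which lay nearest to 0, were 0.00, -0.02 and -0.01. The bins share each array's library and noise and are no replicates. The mean probe GC content was 36.5% on both chromosomes and on the other autosomes it was 36.5% per bin, so that these chromosomes were not unusual in it.

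Bins were then set against bins of the other autosomes in the same class of GC content. In tumour 4, chromosome 16 lay above them by 0.15 to 0.19 and chromosome 18 by 0.11 to 0.19 over the 5 classes. In tumour 2, chromosome 16 lay between -0.10 and -0.09 from them, and in tumour 5 chromosome 18 between -0.15 and -0.11. In the wild-type liver both chromosomes lay between -0.01 and 0.01 of the other autosomes in every class. Correction by the 500 kb window moved the tumour 4 means from 0.20 to 0.19 and from 0.19 to 0.18, and correction by the probe's own GC content left them at 0.20 and 0.19. The corresponding values after the window correction were -0.07 for chromosome 16 in tumour 2 and -0.11 for chromosome 18 in tumour 5.

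**Figure D3:**
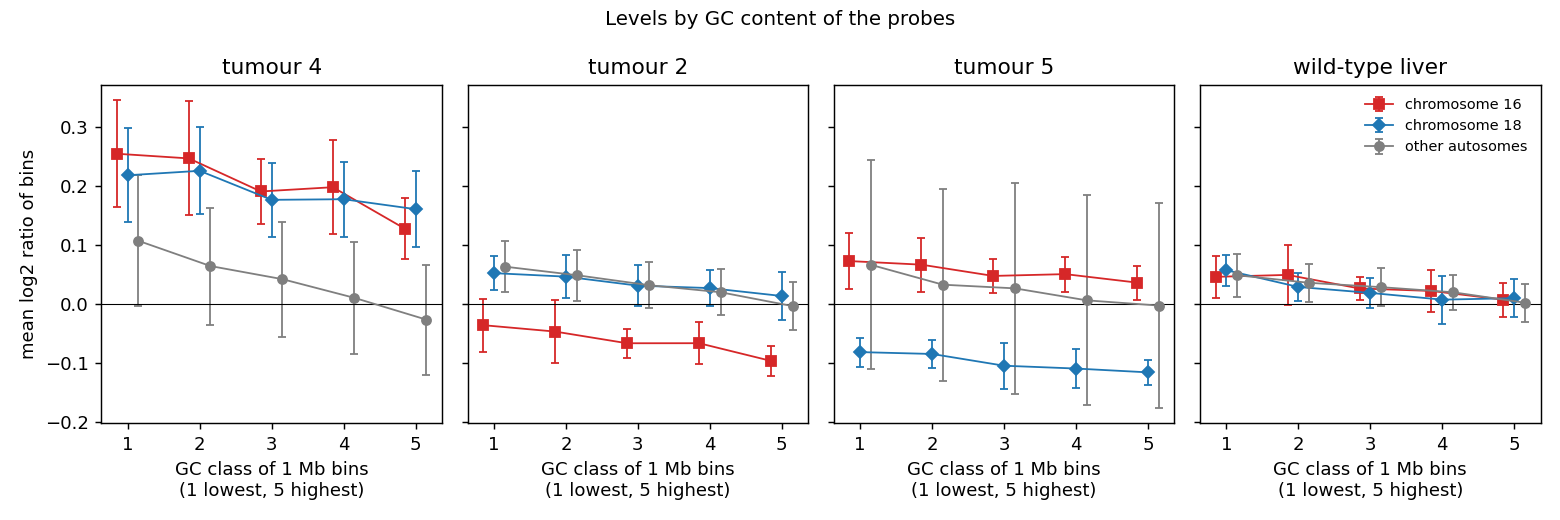
Mean log2 ratio of 1 Mb bins in 5 classes of probe GC content (1 lowest, 5 highest) for chromosomes 16 and 18 and the other autosomes, with bars for the SD over bins. In tumour 4 the level falls from class 1 to class 5 in all 3 sets of bins, and chromosome 16 stays above the other autosomes by 0.15 to 0.19.

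The genes of these chromosomes were read through the probes within 0.5 Mb of each, since the probes of a gene's own name ranged from 1 to 150. Of 78 genes in 11 lists, 76 were found, 39 on chromosome 16 and 37 on chromosome 18. In tumour 4 the mean level lay above 0 for 39 of 39 and 37 of 37 of them, with a median of 0.17 and 0.18, close to the chromosome's own mean. By the probes of the genes' own names alone, fewer lay above 0 in tumour 4, with 28 of 39 and 35 of 37. Of the 76, 7 lay in the gained segment of tumour 4, and all of these lie between 46 and 90 Mb of chromosome 16, where 36.4% of the probes of chromosome 16 and 5.00% of autosomal probes were gained in that array. These calls follow from the position of the genes in that segment, and 0 of them held after GC correction by window. With that correction all of chromosome 16 was 1 segment at 0.19, just under the threshold of 0.2. After correction by the probe's own GC content, the stretch from 51969210 to 90032919 was still gained, at 0.25. None was lost. In tumour 2, 39 of 39 genes of chromosome 16 lay below 0 (median -0.08), and in tumour 5, 37 of 37 of chromosome 18 (median -0.11). In the wild-type liver 27 of 39 and 25 of 37 lay above 0, with medians of 0.01 and 0.01. Neighbouring genes share probes, and the levels chose the chromosomes, so that these counts are a description.

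Among growth-inhibiting signals, the 3 TGF-beta genes all lie on chromosome 18, with a tumour 4 median of 0.16 and none gained. Smad4, the shared partner of the receptor-activated Smads, was the lowest of them in tumour 4 at 0.09. Across tumours 1 to 6 its window stood at 0.03, 0.02, 0.03, 0.09, -0.14 and -0.04, against -0.02 and 0.03 in the 2 non-tumour livers. Tumour 5 was the only tumour under -0.1 there. Smad2, a receptor-activated Smad, was the highest of the list in tumour 4 at 0.16. Of the 5 genes of the Wnt pathway, 0 were gained, with a tumour 4 median of 0.13. Apc, the scaffold of the complex that degrades beta-catenin, stood at -0.01, 0.02, 0.06, 0.13, -0.12 and -0.05 in tumours 1 to 6, with -0.05 and 0.00 in the non-tumour livers. Gsk3b, the kinase of that complex, lies on chromosome 16 and stood at 0.03, -0.08, 0.03, 0.11, 0.03 and -0.01 in the tumours. Tumour 2 was the lowest for Gsk3b and tumour 5 for Apc, as for their chromosomes. Mcc at 0.26 and Dvl3, an activator of the pathway, at 0.08 were the extremes in tumour 4. After the window GC correction Dvl3 stood at 0.14 and Gsk3b was the lowest at 0.09.

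Of the 9 growth factor and MAP kinase genes, 0 were gained in tumour 4 and the median was 0.15. Map3k8, a kinase that responds to inflammatory signals, was the highest of the list in tumour 4 at 0.21 and Csf1r, the receptor of macrophage colony-stimulating factor, the lowest at 0.10. Csf1r stood at 0.17 after GC correction and was no longer the lowest. The 9 transcription factors had the lowest list median in tumour 4, at 0.12, with 0 gained. Runx1, a factor of blood cell development in the last part of chromosome 16, stood at -0.01, -0.12, 0.01, 0.03, 0.00 and -0.05 in the tumours. By this window tumour 4 was the highest. The 12 probes named Runx1 gave another order, at -0.04, -0.18, -0.03, -0.29, 0.01 and -0.13, with -0.17 and 0.00 in the non-tumour livers, so that tumour 4 was the lowest by them. Trp63, a relative of the tumour suppressor p53, stood at 0.21 in tumour 4, the highest of the list, but Nfatc1 was the highest after GC correction at 0.22. The pair of cell survival genes, both on chromosome 18, stood at 0.08 (Malt1, a protease of NF-kappaB signalling) and 0.20 (Pmaip1, a promoter of cell death) in tumour 4.

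Of the 8 chromatin genes found, 0 were gained and the tumour 4 median was 0.16. Crebbp, a histone acetyltransferase near the start of chromosome 16, stood at 0.01, -0.09, 0.03, 0.14, 0.01 and 0.03 in tumours 1 to 6, with 0.00 and -0.01 in the non-tumour livers. Mbd2 at 0.24 and Mbd1 at 0.02, both binders of methylated DNA on chromosome 18, were the extremes, so that the Mbd1 window was the lowest of the 76 in tumour 4. DNA replication and repair had the highest list median, 0.27, over 3 genes with 0 gained. Mcm4, a subunit of the replicative helicase, was the highest of all list genes in tumour 4 at 0.31. After GC correction it stood at 0.25, under Cldn1 at 0.30. Prkdc, the catalytic subunit of the DNA-dependent protein kinase, lies beside Mcm4 and shares most of the probes of its window. Prkdc stood at 0.07, -0.03, 0.07, 0.27, 0.06 and 0.05 in tumours 1 to 6, with 0.02 and 0.05 in the non-tumour livers. Tumour 4 stood apart from the others there. Ercc3, a helicase of nucleotide excision repair, was the lowest of the list at 0.21.

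Of the 14 invasion and adhesion genes, 6 lay in the gained segment of tumour 4 (Tiam1, Robo1, Robo2, Alcam, Adamts1 and Adamts5), where 36.4% of the probes of chromosome 16 and 5.00% of autosomal probes lay in gained segments. None of these calls held after the window GC correction, where chromosome 16 was 1 segment at 0.19, just under the threshold. The list median was 0.21, or 0.19 after that correction. The 2 extremes of the list were neighbours in that segment, with Robo2 at 0.31 and Robo1 at 0.16, both receptors of Slit guidance proteins. After GC correction they stood at 0.30 and 0.17, and the extremes were Cldn1, a tight junction protein outside the segment, at 0.30 and Adamts1 at 0.15. Robo2 has 71 probes of its own name. Snai2, a repressor of E-cadherin, stood at 0.11, -0.03, 0.09, 0.22, 0.10 and 0.06 in tumours 1 to 6, against 0.04 and 0.05 in the non-tumour livers. Cdh2, which encodes N-cadherin, stood at 0.04, 0.04, 0.09, 0.19, -0.12 and 0.01, against 0.01 and 0.06. For Cdh2 tumours 4 and 5 lay on opposite sides of the others.

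Of the 15 liver genes, 0 were gained, with a tumour 4 median of 0.19. Ttr, which encodes the plasma carrier transthyretin, stood at 0.08, 0.07, 0.11, 0.27, -0.07 and 0.07 in tumours 1 to 6, with 0.06 and 0.07 in the non-tumour livers. Gata6, a factor of liver development, was the highest at 0.29, and Thpo, which encodes thrombopoietin, the lowest at 0.07. GC correction moved Thpo to 0.15, and Fech was then the lowest of the list at 0.11. All 5 interferon and cytokine genes lie on chromosome 16, with 0 gained and a tumour 4 median of 0.19. Ifngr2, a chain of the interferon-gamma receptor, stood at 0.19 and Socs1, an inhibitor of that signalling, at 0.13. Of the 3 genes of iron and oxidative stress, 1 was gained in tumour 4 (Bach1, a repressor of haem-responsive genes, at 0.19), by its place in the segment that held 36.4% of the probes of chromosome 16, against 5.00% of autosomal probes gained. Sod1, a superoxide dismutase just past the end of the gained segment, was the lowest at 0.10.

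**Figure D4:**
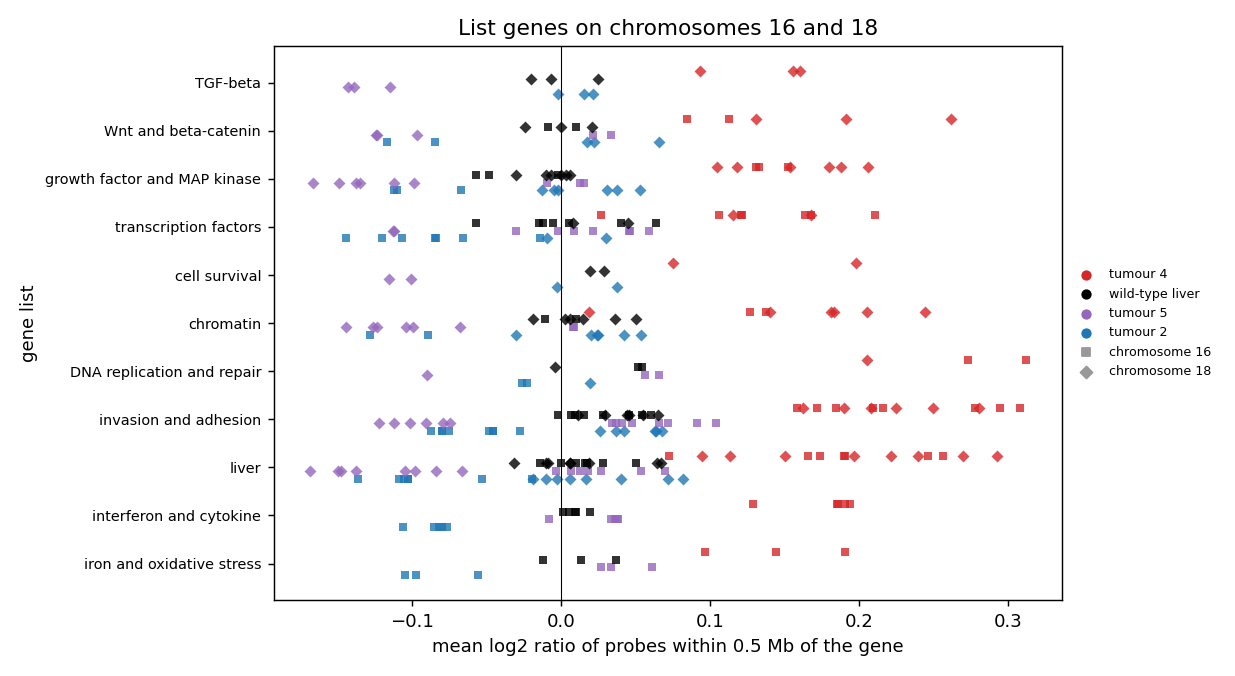
Mean log2 ratio of the probes within 0.5 Mb of each of 76 list genes (x axis), by gene list, for tumours 2, 4 and 5 and the wild-type liver, with squares for chromosome 16 and diamonds for chromosome 18. The tumour 4 points run from 0.02 to 0.31, while chromosome 16 genes of tumour 2 and chromosome 18 genes of tumour 5 lie below 0.

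One short segment was called on these chromosomes, a loss in the non-tumour FEAT liver. It covered 2.47 kb at Prm1, which encodes a protamine of sperm chromatin, from 10473881 to 10476352 of chromosome 16. Its 5 probes averaged -1.24 there, where 0.0324% of autosomal probes of that array lay in lost segments. At the first of the 3 Prm1 probes printed above, tumours 1 to 6 stood at -0.76, -0.96, -0.26, -0.40, 0.00 and -1.05, the non-tumour FEAT liver at -1.83 and the wild-type array at 0.34. The second stood at -0.58, -0.53, -0.34, 0.06, 0.15 and -0.64 in the tumours, with -1.67 and 0.14 in the non-tumour livers. The third stood at -0.33, -0.80, -0.06, -0.03, 0.27 and -1.39 in the tumours, against -1.80 and 0.68. Tumours 1, 2, 3 and 6 were thus below 0 at all 3 probes, between the non-tumour FEAT liver and the wild-type array, while tumour 5 was near or above 0. The median over the 5 probes was -0.37 ± 0.22 (SD, n = 6) in tumours. The other 2 probes of the segment, which carry no gene name, stood at -0.41 and -0.51 in the non-tumour FEAT liver. The tumours ran from -0.53 to -0.15 and from -0.47 to -0.17 there, with -0.09 and -0.08 on the wild-type array. Within the segment, the non-tumour FEAT liver thus stood far below every tumour only at the first and second Prm1 probes, and below tumour 6 by less at the third. With a penalty factor of 1 in place of 2, the same segment was also called lost in tumour 6 (-0.79), and a longer one of 15 probes in tumour 2 (-0.44).

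A second short region, AK028699 on chromosome 18 from 58941106 to 58980073, was picked out after its values had been seen, since it was called only at a penalty factor of 1 or after subtraction of the wild-type array. The median of its 5 probes stood at 0.73, 0.51 and 0.76 in tumours 2, 5 and 6 and at 0.81 in the non-tumour FEAT liver. In tumours 1 and 3 and the wild-type liver it stood at -0.06, -0.01 and -0.08, with tumour 4 at 0.29. At the probe from 58972344 to 58972403, tumours 1 to 6 stood at -0.17, 1.01, -0.09, 0.45, 0.50 and 1.04, the non-tumour FEAT liver at 1.16 and the wild-type array at -0.07. The last probe of the region, from 58980014, stood at 0.73, 0.51 and 0.97 in tumours 2, 5 and 6. It stood at 0.81 in the non-tumour FEAT liver and at -0.02 on the wild-type array. Tumours 1, 3 and 4 stood at 0.05, 0.47 and 0.52 there, so that this probe did not set tumours 3 and 4 apart from tumour 5. The first probe past the region, starting at 58989127, stood below 0 in 7 of the 8 arrays. The high arrays thus included the non-tumour liver of a FEAT mouse. At a penalty factor of 1 every array had short calls on these chromosomes. In the wild-type liver they included gains at Gm94 (0.53) and Smad4 (0.28) and a loss at AK015735 (-0.48). The share of autosomal probes called at that factor was not determined. Also at that factor, and likewise picked after the fact, tumour 4 had 2 narrow gains, of which 1 was also called in tumour 6. One covered 6 probes at Zbtb20, a transcription factor of liver, with a median of 1.44 against 0.18 to 0.57 in the other tumours. The non-tumour livers stood at 0.17 and 0.18 there. The other covered 5 probes at AK029322 on chromosome 18, with a median of 1.65 in tumour 4. The same 5 probes were called gained in tumour 6 with a segment mean of 0.81 (median 0.73), and the other tumours had medians of 0.01 to 0.48. The non-tumour livers stood at 0.22 and 0.18 there. Both loci had medians above 0 on every array, highest in tumours 4 and 6. These 2 arrays had the largest probe noise (SD 0.49 and 0.36), and a part of noise in these calls was not tested.

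**Figure D5:**
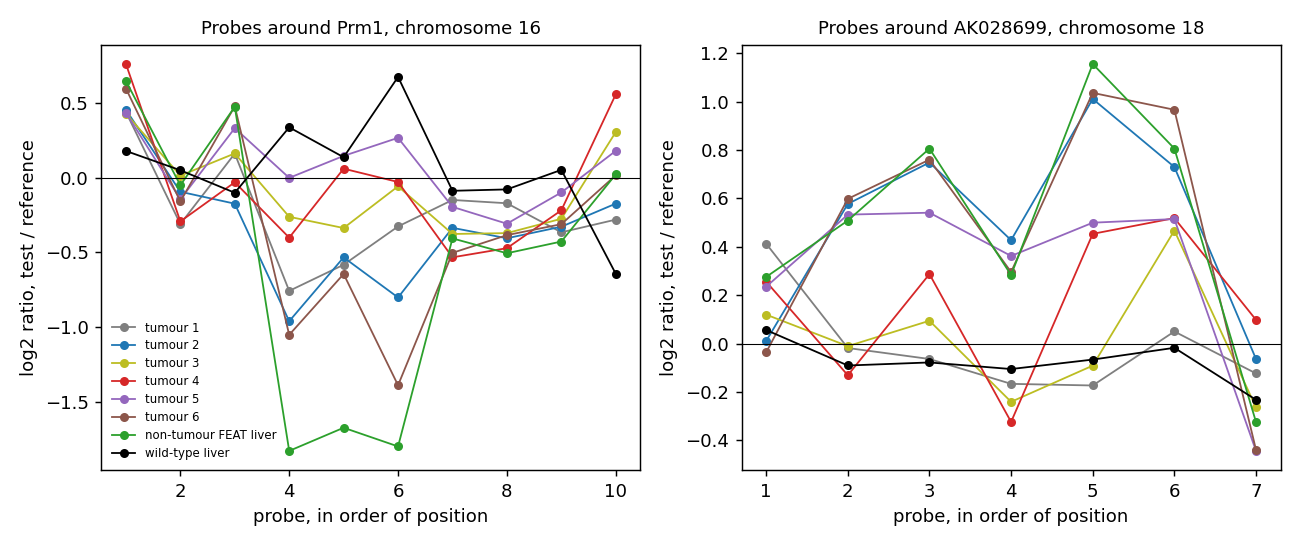
Log2 ratio (test over reference) of single probes in order of position around Prm1 (left) and AK028699 (right), with 1 line per array. At the 3 Prm1 probes the non-tumour FEAT liver lies between -1.83 and -1.67, and at probes 2 to 6 around AK028699 it lies with tumours 2, 5 and 6 above tumour 1 and the wild-type liver.

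Single probes that set all FEAT arrays apart from the wild-type liver were few, by a rule written after the data had been seen. It asked for a level of at least 0.5 in 1 direction on all 7 FEAT arrays and under 0.25 in either direction in the wild-type liver. On chromosome 16, 2 probes were low and 3 high (0.0225% and 0.0337% of its probes), and on chromosome 18, 1 was low and 0 high. On the other autosomes the shares were 0.0236% low and 0.0266% high. The lowest was the probe in Ahsg printed above, in the gene of fetuin-A, a plasma protein made by the liver. It stood at -1.12, -1.15, -1.19, -1.28, -1.07 and -0.91 in tumours 1 to 6, with -0.83 and 0.16 in the non-tumour livers. Its neighbours on either side had medians of 0.36 and -0.16 over the FEAT arrays, so that the shift was confined to 1 probe of those 3. The other low probes were in 1500031L02Rik on chromosome 16 and Zfp516 on chromosome 18, and the only named high probe was in Stxbp5l. With 1 wild-type array of a younger mouse, genotype and age cannot be told apart in this comparison.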

How the data were processed

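Genomic DNA of 8 livers was hybridised to 2-colour Agilent 244A arrays, with the test DNA in Cy3 and the reference in Cy5, per the labels. The deposited values are log2 ratios. On the wild-type array, whose scanner file was also used, they equalled the deposited log10 ratio (red over green) taken with the opposite sign and in base 2, plus 0.0014 over 227934 probes, so that higher values mean more test DNA. For the other arrays this rests on the dyes in the labels. That file was made with Feature Extraction 9.1.3.1 (protocol CGH-v4_91), per the file headers, and CGH analytics 3.4 was used by the authors, per the series description. Its deposited intensity values served only for flags of dim spots, and its p-values were not used.

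Spots of one probe were averaged and the autosomal median of each array was set to 0, with no loess or quantile step. Outlying values were limited to 3 noise SDs from the running median of 5 probes, and chromosomes were divided by penalised least squares (penalty factor 2, at least 5 probes), with segments called at or beyond 0.2. GC content is that of the probe sequences, since no genome was used here, averaged over 500 kb and removed by lowess on autosomes. Limma 3.58.1 in R 4.3.3 compared 5 tumours with the 2 non-tumour livers, with Benjamini-Hochberg adjustment at 0.05. Its bins of 1 Mb held at least 20 probes. Segmentation and limma were tested on simulated data. The other steps used Python 3.11.15 with numpy 2.4.6, pandas 2.3.3, statsmodels 0.14.6 and matplotlib 3.10.9.

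The chromosomes, gene lists and named genes were chosen with earlier results of these data known. Named genes were 10 listed genes, the highest and lowest of each list in tumour 4, and short called segments. The values of 1 of the listed genes are not reported here. Genes carry the names used on the array, with older names matched through RefSeq (GRCm38.p6). Of the 78 list genes, Asxl3 and Rbbp8 were not found, and Zeb1 was matched by an older name. Alternatives covered centring, GC correction, dim probes, threshold, penalty, segment size, bin size and each array left out. Subtraction of the wild-type array and of the other autosomes was added after the data had been seen.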

Additional observations from a re-analysis of the deposited data

Results flagged for a closer look

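The 6 tumours were examined for 1 value that stood apart from the other 5, for 30 named genes, the called short segment and both chromosomes, 33 groups in all. In 3 of them the gap passed Dixon's 95% limit. In each of them tumour 4 was the highest, with a window mean of 0.31 at Mcm4, 0.27 at Prkdc and 0.21 at Trp63, against medians over the 6 tumours of 0.08, 0.06 and 0.04. The windows of Mcm4 and Prkdc overlap and are not separate results. Chance passes this limit in about 1 in 20 groups that were not chosen on their values. All 3 lie on chromosome 16, which was chosen for its high tumour 4 level, so that the limit is no test here and the 3 values are a description.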

How the results depend on the processing

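No paired analysis was possible because the replicate numbers are accession order only and the non-tumour groups have 1 animal each. The tumour 4 levels ran over 9 alternatives for each chromosome, all above 0. On chromosome 16 they ran from 0.16 (median of probes) to 0.28 (centring on the mode). On chromosome 18 they ran from 0.15 (difference from the mean of the other autosomes) to 0.27 (centring on the mode). The share gained in tumour 4 depended on the setting. On chromosome 16 it was 36.4%, and 100% with centring on the mode and at a threshold of 0.1. It was 0% at 0.3, at a penalty factor of 4 and after either window GC correction. It was 31.9% after probe GC correction, 43.9% without dim probes, 40.2% at a penalty factor of 1 and 44.1% minus the wild-type array. On chromosome 18 it was 0%, but 100% with centring on the mode, with centring without chromosomes 16 and 18 and at 0.1, and 43.9% at a penalty factor of 1. Over all arrays, 2 segments were called on chromosome 16, but 4 with centring on the mode, 1 after window GC correction, 5 at a threshold of 0.1, 1 at 0.3, 18 at a penalty factor of 1 and 0 at a factor of 4. On chromosome 18 there were 0, but 1, 3 and 16 with mode centring, a threshold of 0.1 and a factor of 1. The cause was not tested. The difference of 5 tumours from the non-tumour livers changed sign on chromosome 16 with probe medians (-0.0071), and without 1 array at a time it ran from -0.0064 to 0.024, and from -0.019 to 0.020 on chromosome 18. No limma call arose in any of these settings, with adjusted p from 0.774 to 0.995 and from 0.738 to 0.992. Shifts near the threshold, the noise of the tumour 4 array and 1 animal per non-tumour group limit these results.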
